A study of Homo sapiens with 6 samples.

Results

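Exonic 6mA peaks away from promoters were the peaks on chromosomes 1 to 22 whose summit, the base of highest enrichment, lay in an exon of a protein-coding or lncRNA (long non-coding RNA) gene and more than 1000 bp from every transcription start site. They were 1066 of the 143552 peaks in the 4 peak lists, counted list by list. Joined across libraries wherever they shared at least 1 bp, they gave 544 exonic regions of 69942 autosomal regions. Of these regions, 80 had their strongest exonic summit in coding sequence, 271 in untranslated sequence and 192 in a lncRNA exon, and 1 lay in an exon of a protein-coding gene's non-coding transcript.

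The lists came from 6mA-IP-seq, immunoprecipitation of sheared genomic DNA with an antibody to N6-methyladenine followed by sequencing, in MDA-MB-453, a human breast cancer cell line. The control group was transfected with a scrambled siRNA and the si-N6AMT1 group with an siRNA against N6AMT1, each at 10 nM for 48 h. N6AMT1 is a methyltransferase, and the study asked whether it places 6mA in DNA. Each group had 2 immunoprecipitated libraries, which the study describes as biological replicates of this 1 line, and the knockdown itself cannot be checked in peak lists.

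6mA is adenine carrying a methyl group on its N6 position, common in bacterial DNA and reported at low levels in mammalian DNA. Exons differ in what limits their sequence: coding exons are read in triplets, 3′ untranslated exons hold long stretches that regulate the mRNA, and lncRNA exons carry no reading frame. A peak in an exon in this assay concerns the DNA of the exon. The study denatured the fragments before adding the antibody, so both DNA strands were present, as single strands.

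The sequences at the highest ranked coding regions found in all 4 libraries are shown first. In 5 of these 8 windows, 6 or more bases lie in the glutamate and lysine codons described below for coding summits. The other 3 windows hold 3 such bases or none. Each line gives the 30 bases centred on the strongest exonic summit, 5′ to 3′ on the sense strand, from the GRCh37 genome. The capitals mark the codons GAA or GAG, which encode glutamate, and AAA or AAG, which encode lysine, in the reading frame of the gene.
PRRC2C, chr1:171501866-171501895: ctgGAGAAGGAGcagGAAAAAcaaagaGAA
SREK1, chr5:65466601-65466630: ggGAAAAAGAGcatGAGAAGgatcgagaca
CALD1, chr7:134618570-134618599: aagggcagcaGAGGAGaggcagaggataaa
LRRIQ1, chr12:85449607-85449636: AAAGAAGAGagaAAAAAGcaaAAGGAAGAG
GOLGA6L1 and GOLGA6L22, chr15:22743179-22743208: GAGGAGAAGataaggGAGcagGAGGAGAAG
PCDH15, chr10:55582127-55582156: tttgtcctcctccctctcctccttctatcc
MUC6, chr11:1016961-1016990: catcacccccAAAcacaccagtacaggcac
DLG2, chr11:83585512-83585541: tttcttgcagtcattcccaacatagcaccg
The windows of PRRC2C, SREK1, CALD1, LRRIQ1 and the GOLGA6L pair were purine-rich on the sense strand. Those of PCDH15, MUC6 and DLG2 held 0, 3 and 0 capital bases, and purines made up only 9%, 42% and 43% of the sense strand in the 100 bp around these summits. The DLG2 exon is 69 bp long, so its 100 bp include sequence outside the exon.

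Peaks were scarce in exons. Control replicates 1 and 2 held 232 and 253 exonic peaks and si-N6AMT1 replicates 1 and 2 held 293 and 288, of 29495, 32295, 37563 and 39451 autosomal peaks. As a share of peaks this was 0.787% in control replicate 1 (95% Wilson interval 0.692 to 0.894), 0.783% in control replicate 2 (0.693 to 0.886), 0.780% in si-N6AMT1 replicate 1 (0.696 to 0.874) and 0.730% in si-N6AMT1 replicate 2. Exon sequence away from promoters made up 85.9 Mb, or 3.20% of the assembled autosomes. The density of peaks in it was therefore 0.246, 0.245, 0.244 and 0.228 of the density over the autosomes as a whole, a mean of 0.241 ± 0.00837 (SD, n = 4 libraries). These intervals cover counting error only.

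The exonic lists were longer in si-N6AMT1, as the whole lists were, and the exonic share was slightly lower. The si-N6AMT1 libraries held 48 more exonic peaks on average, with no overlap between the groups (exact two-sided permutation test, p = 0.333, which is the smallest that 2 against 2 libraries allow). The exonic share in si-N6AMT1 minus that in control was -0.0300 percentage points (exact permutation p = 0.333), and without si-N6AMT1 replicate 2 the difference shrank to -0.00497, while without si-N6AMT1 replicate 1 it was -0.0550. As a measure that scales with sequencing depth, the lowest local background in each list was divided by the width of its shortest peak. This measure was 1, 1.32, 1.38 and 1.50 relative to control replicate 1, and was higher in both si-N6AMT1 libraries. Divided by this measure the exonic peaks numbered 232, 191, 212 and 192, and these values overlapped between the groups. Depth and treatment cannot be told apart in the raw numbers.

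The 3 classes of exon differed in density in every library. Coding exons held 49, 47, 48 and 52 peaks in the 4 libraries, in the order given above, and their density was 0.156, 0.137, 0.120 and 0.124 of that over the autosomes. Untranslated exons held 105, 115, 135 and 135 peaks at 0.264, 0.264, 0.266 and 0.253 of it. All but 3, 2, 2 and 4 of these lay in 3′ untranslated sequence. Exons of lncRNA genes held 78, 91, 109 and 101 peaks at 0.338, 0.360, 0.370 and 0.327 of it. Coding density was below untranslated density by a mean of 0.128 ± 0.0158 (SD, 4 of 4 libraries), and untranslated density was below lncRNA density by 0.0869 ± 0.0157 (4 of 4 libraries). An exact sign-flip test over the 4 libraries gave p = 0.125 for each, the smallest it allows, and the libraries share many of the peaks.

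The order of coding and untranslated exons depended on exon length, taken as the length of the unbroken block of exon sequence around the summit. In blocks of 1000 to under 3000 bp the density was 0.523, 0.395, 0.428 and 0.340 of the autosomal density for coding summits, against 0.275, 0.303, 0.242 and 0.248 for untranslated summits. Coding was thus higher by 0.154 ± 0.0767 (SD, 4 of 4 libraries), and in blocks of 500 to under 1000 bp by 0.132 ± 0.0989 (4 of 4 libraries). In blocks of 200 to under 500 bp it was lower, at -0.0841 ± 0.0468 (0 of 4 libraries higher; exact sign-flip p = 0.125 in all 3 bins). In blocks of 3000 bp or more the difference was 0.0166 ± 0.0492 (exact sign-flip p = 0.625), and under 200 bp it was -0.0322 ± 0.0959 (exact sign-flip p = 1). Blocks of 1000 bp or more made up 26.6% of coding sequence and 90.2% of untranslated sequence.

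**Figure D1:**
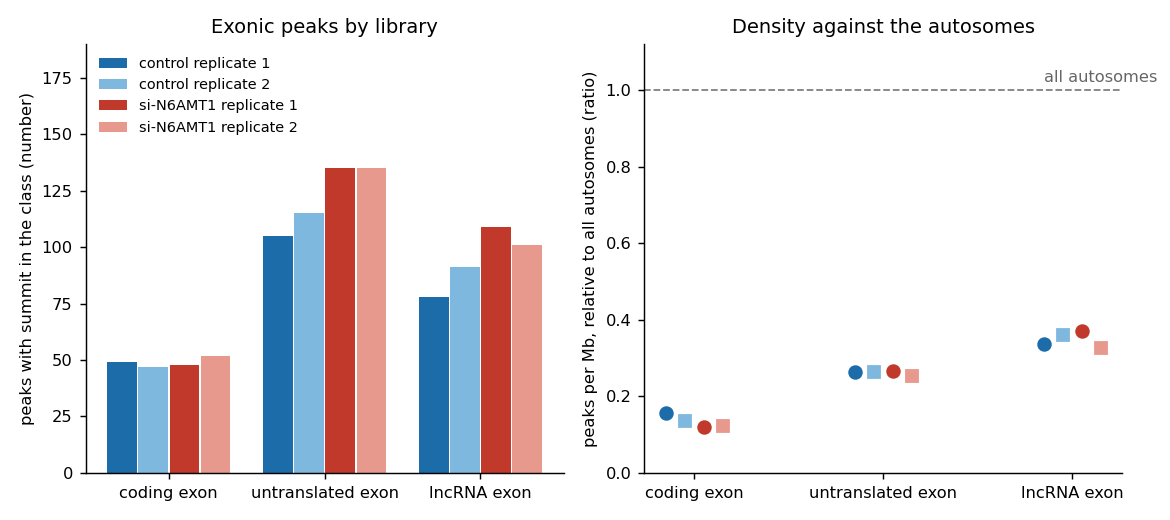
Left, number of peaks with a summit in coding, untranslated and lncRNA exons, with 1 bar per library. Right, peaks per Mb of each class as a ratio to peaks per Mb of all autosomes (dashed line at 1), with 1 point per library; the coding points sit lowest at 0.120 to 0.156 and the lncRNA points highest at 0.327 to 0.370.

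The coding count did not rise with the length of the lists. It stayed between 47 and 52 while untranslated and lncRNA counts were higher in both si-N6AMT1 libraries than in both controls. The coding share of all autosomal peaks was 0.166% (95% Wilson interval 0.126 to 0.220) and 0.146% (0.109 to 0.193) in the controls against 0.128% (0.0964 to 0.169) and 0.132% in si-N6AMT1. The groups did not overlap, with a mean difference of -0.0260 percentage points (exact permutation p = 0.333) that was -0.0157 without control replicate 1, and the counting intervals of all 4 libraries overlapped. The untranslated share differed by -0.00525 percentage points and the lncRNA share by -1.8e-05, both with an exact permutation p of 1. Whether the coding difference differed from that of the other classes was not tested.

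Median enrichment at exonic peaks lay close to that at other peaks. Fold enrichment is the pileup of fragments at the summit over the local background, with 1 added to each. Its median at exonic peaks was 7.47, 7.19, 6.99 and 6.64 in the 4 libraries, against 7.41, 6.92, 6.92 and 6.64 at all other autosomal peaks. The difference averaged 0.0995 ± 0.118 (SD, higher in 3 of 4 libraries; exact sign-flip p = 0.25), and 0.0427 without control replicate 2. The median pileup at exonic summits was 17, 19, 19 and 19 fragments. Of the exonic peaks, 60.3%, 56.5%, 56.3% and 57.3% overlapped a peak of the other library of the same group, compared with 58.5%, 53.5%, 57.4% and 54.7% of the other peaks, a mean difference of 1.57 percentage points (exact sign-flip p = 0.25).

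Most exonic peaks lay in long exons, which also hold most exon sequence. Blocks of 1000 bp or more held 84.9%, 87.0%, 86.7% and 88.9% of the exonic peaks and 63.2% of the exon sequence. The median block length over exonic peaks was 2757 to 2981 bp. Blocks under 200 bp, the usual size of an internal coding exon, made up 17.1 Mb and held 6 peaks in each library, or 0.0276 ± 0.00373 of the autosomal density. Blocks of 200 to under 500 bp held 10, 11, 9 and 8 peaks, at 0.0947 of it. Blocks of 500 to under 1000 bp held 19, 16, 24 and 18, at 0.227 of it. Blocks of 1000 to under 3000 bp held 100, 103, 111 and 113 peaks at 0.353 ± 0.0271 of the autosomal density, and blocks of 3000 bp or more held 97, 117, 143 and 143 at 0.313 ± 0.0189. The density in blocks of 1000 to under 3000 bp exceeded that in blocks under 200 bp by 4.18 ± 0.265 peaks per Mb (4 of 4 libraries; exact sign-flip p = 0.125).

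The step between short and long blocks was seen within coding exons too. Coding blocks under 200 bp held 2, 4, 1 and 4 peaks over 14.4 Mb, or 0.191 ± 0.104 per Mb. Coding blocks of 1000 to under 3000 bp held 23, 19, 24 and 20 peaks over only 4.0 Mb, or 5.37 ± 0.595 per Mb and 0.421 of the autosomal density. In untranslated exons the density was 0.267 and 0.279 of the autosomal value in the 2 longest bins and 0.0470 under 200 bp, where only control replicate 1 had a peak. In lncRNA exons the density was 0.438 and 0.454 of the autosomal value in the 2 longest bins and 0.109 under 200 bp. The shortest bins rest on few peaks in each library. Peaks were wider than such blocks, with a median width of 426 to 444 bp at exonic peaks, so a block under 200 bp cannot hold a whole typical peak; 79.3% to 84.0% of exonic peaks lay wholly inside the exon block of their summit.

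**Figure D2:**
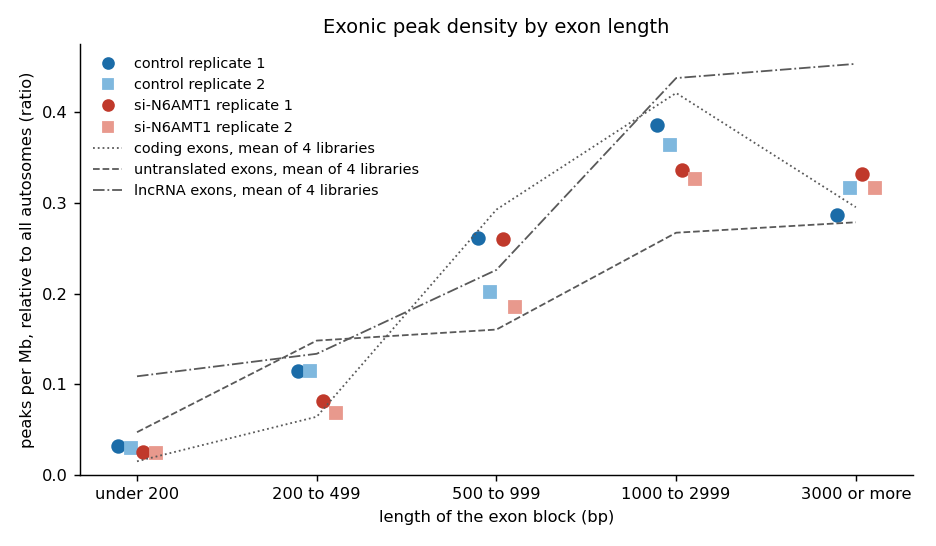
Peaks per Mb of exon sequence as a ratio to all autosomes (y axis) against the length of the exon block in bp (x axis, 5 bins). Points are the 4 libraries for all exons and lines are class means; the points rise from about 0.0276 under 200 bp to 0.353 at 1000 to under 3000 bp.

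Exonic summits were less rich in adenine and thymine than other summits, yet richer than exons at large. In the 100 bp centred on the summit, A plus T was 57.9%, 58.2%, 59.5% and 58.9% at exonic peaks. It was 62.8% to 63.4% at other peaks and 54.8% over exon sequence sampled every 200 bp. The difference from other peaks averaged -4.50 ± 0.651 percentage points (lower in 4 of 4 libraries; exact sign-flip p = 0.125).

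Simple repeated sequence was more frequent at exonic summits than in exons at large, while purine runs and CA repeats were on average less frequent there than at other peaks. An unbroken run of 30 or more purines, or of 30 or more pyrimidines, lay in the window of 16.8%, 18.6%, 19.1% and 17.4% of exonic peaks, against 0.253% of exon windows at large. At other peaks it lay in 20.6%, 18.3%, 21.5% and 19.9%, a mean of 2.10 percentage points more than at exonic peaks (exact sign-flip p = 0.25). The share was 25.2% ± 2.01 at lncRNA summits, 17.6% ± 2.57 at untranslated summits and 5.13% ± 2.14 at coding summits. Only 2 of the 80 coding regions held such a run, both of purines on the sense strand. At least 6 CA units in a row lay beside 5.60%, 5.53%, 4.78% and 3.47% of exonic summits, compared with 0.262% of exon windows. At other peaks the share was 6.56%, 5.96%, 4.94% and 4.68%, higher than at exonic summits in each library.

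A run of 10 or more A or T lay in the window of 15.1%, 15.4% and 15.6% of exonic peaks in control replicate 1 and both si-N6AMT1 libraries. In control replicate 2 it was 7.51%, or 19 of 253 peaks. At other peaks this library did not stand apart, with 16.1% against 16.7% in control replicate 1.

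Tandem repeats were frequent in coding and lncRNA members. A 200-bp window was counted as a tandem repeat where at least 70% of its bases matched the base a fixed distance of 2 to 60 bp further on. Among coding summits 16.3%, 17%, 18.8% and 13.5% passed, against 0.261% of coding windows at large. The shares were 17.5% ± 3.41 at lncRNA summits, 5.25% ± 1.04 at untranslated summits and 9.75% ± 0.836 at other peaks. Repeats went with recurrence: 21 of the 105 exonic regions called in all 4 libraries passed (20%), but only 9 of the 263 called in 1 library (3.42%). Other autosomal regions showed the same step, from 18.0% of those in all 4 libraries to 2.84% of those in 1 library.

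Among coding regions in all 4 libraries, 6 of 25 passed the repeat criterion, and 0 of the 28 coding regions in 1 library did. These were named after their values were seen. ZAN, which encodes the sperm protein zonadhesin, had the highest match at 87.2%. The others were the GOLGA6L1 and GOLGA6L22 pair (82.7%), CALD1 (79.7%), GOLGA6L2 (72.6%), TSBP1 (72.3%) and 1 of the 2 regions in IGFN1 (71.2%). An exon that encodes part of the repeated tail of POLR2A, the catalytic subunit of RNA polymerase II, was called in all 4 libraries and came just short at 68.7%.

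Windows with 1 strand rich in purines were common at peaks of every class. The higher of the purine and pyrimidine shares averaged 74.4% at coding, 71.2% at untranslated and 72.9% at lncRNA summits. At other peaks it averaged 71.4%, and in windows at large it was 56.1% to 57.3%. The classes differed in which strand held the purines, and at coding summits this was on average the sense strand. Counted on the sense strand, purines made up 66.9%, 68.2%, 69.8% and 63.7% of bases at coding summits, against 52.4% over coding exon sequence. Sense adenine exceeded sense thymine by 24.0, 26.4, 27.3 and 23.5 percentage points, against 4.43 over coding exons. At untranslated summits the direction was opposite: purines were 45.1%, 44.4%, 43.7% and 44.5% against 49.1%, and adenine was below thymine, at -8.19, -7.97, -6.44 and -8.88 percentage points against -2.20 for the class. At lncRNA summits adenine minus thymine was 7.28, 3.96, 1.50 and 2.47 against 1.33, and purines were 49.0% to 53.8% against 50.6%. For coding and untranslated summits all 4 libraries lay on the same side of their class (exact sign-flip p = 0.125 for each, the smallest possible).

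**Figure D3:**
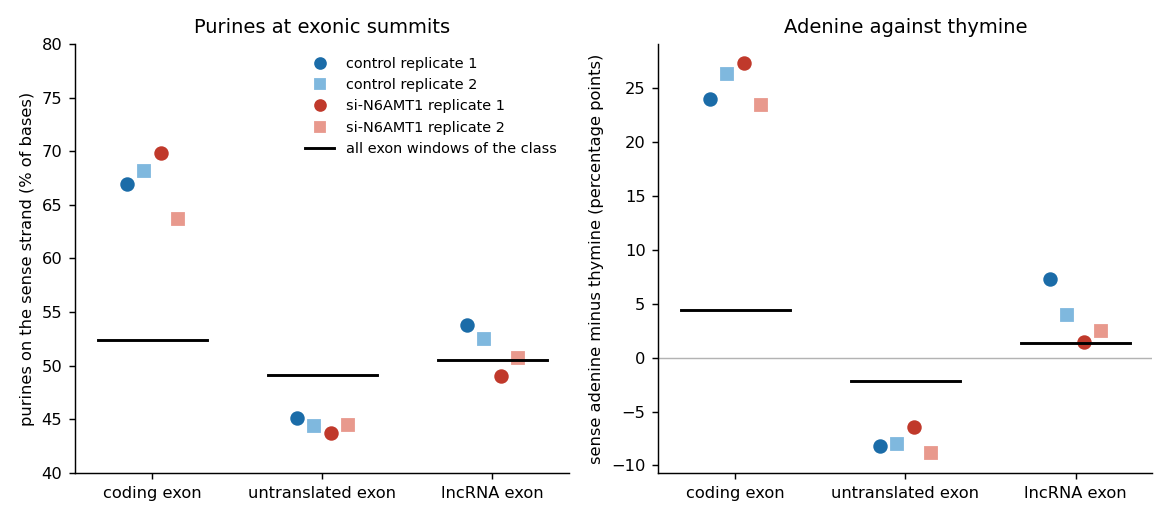
Purines as a percent of bases (left; the axis starts at 40%) and adenine minus thymine in percentage points (right), both on the sense strand in 100 bp around the summit, with 1 point per library and a black bar for all exon windows of the class. Coding points lie above their bar at 63.7% to 69.8% purine, untranslated points lie below theirs, and lncRNA points lie on both sides of the purine bar.

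Coding regions were also counted once each. Of the 78 coding regions with a single sense strand, 50 held more purines than pyrimidines on it (64.1% of regions). No such share was computed for coding windows at large. The mean purine percent was 71.2% ± 20.5 (SD over 25 regions) in those called in all 4 libraries. It was 64.6% ± 20.9 (27 regions) in those called in 2 or 3. In those called in 1 it was 55.7% ± 22.2 (26 regions), nearer the 52.4% of coding exon sequence. Regions in all 4 libraries with over 70% sense purine numbered 16 of 25. These means are descriptions over regions, not over replicates.

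Codons for glutamate and lysine, which consist of purines only, were counted at coding summits. Their shares are not independent of the purine content above, and the other all-purine codons were not counted. Within 50 bp of coding summits, GAA or GAG made up 19.4%, 21.8%, 22.1% and 16.1% of codons, against 7.13% over all autosomal coding sequence. AAA or AAG made up 13.0%, 13.1%, 14.2% and 13.1%, against 5.77%. Glutamate and lysine codons together were 33.2% ± 3.12 of the codons, against 12.9%. CTG, a leucine codon, went the other way, at 0.957% ± 0.215 against 3.93%. Each share rests on 1336 to 1516 codons per library, and the exact sign-flip p was 0.125 in each case. The same regions recur across libraries, so these 4 values are not independent samples of exons.

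The motif CAGGCTGG, searched on both strands, lay within 50 bp of 7, 10, 7 and 8 exonic summits, or 3.02%, 3.95%, 2.39% and 2.78%, and in 2.68% of exon windows of the same length. It lay beside none of the 49, 47, 48 and 52 coding summits, which allows a share of up to 6.12%, 6.38%, 6.25% and 5.77%. Over coding windows at large the share was 1.42%, which lies within these limits. The same limits hold for CA repeats, which none of the windows at coding summits held. CA repeats lay in 0.028% of coding windows at large.

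Most exonic regions were called in few libraries. Of the 544 regions, 263 were called in 1 library (48.3%), against 49.4% of all autosomal regions. Regions in all 4 libraries numbered 105 (19.3%), against 16.9% of all autosomal regions. Those in both controls and neither si-N6AMT1 library numbered 14 (2.57%), against 2.63%, and those in both si-N6AMT1 libraries and neither control numbered 30 (5.51%), against 5.85%. The shares called in 1 group only were near those of all regions.

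Recurrence differed between the classes. Coding regions were called in all 4 libraries in 25 of 80 cases (31.3%), lncRNA regions in 40 of 192 (20.8%) and untranslated regions in 40 of 271 (14.8%). A region counted as exonic where at least 1 of its summits was exonic, so regions with more peaks had more chances to enter. In 93 of the 105 regions in all 4 libraries, each library had an exonic summit, and the summits of the 4 libraries lay within a median of 132 bp of each other.

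**Figure D4:**
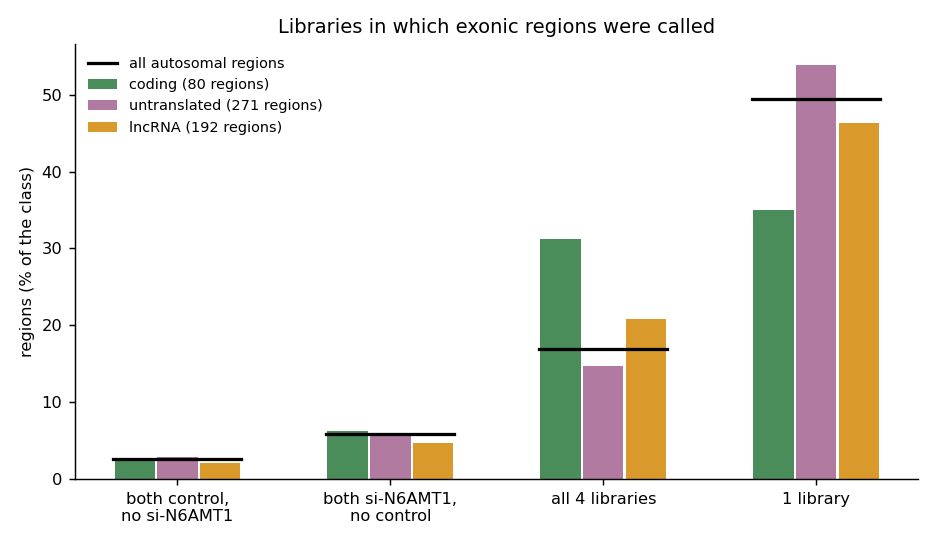
Percent of coding, untranslated and lncRNA regions (bars) called in both controls only, both si-N6AMT1 libraries only, all 4 libraries and 1 library, with all autosomal regions as black lines. Bars in the first 2 sets lie near the lines at 2.63% and 5.85%, and the coding bar for all 4 libraries stands at 31.3% against 16.9%.

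In the 105 regions called in all 4 libraries, fold enrichment separated the groups about as often as elsewhere. Both controls lay above both si-N6AMT1 libraries in 25 regions (23.8%), against 24.3% of all such autosomal regions. Both si-N6AMT1 libraries lay above both controls in 21 regions (20%), against 16.9%.

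The strongest coding regions are given with their fold enrichment in control replicates 1 and 2 and si-N6AMT1 replicates 1 and 2, in that order. MUC6, a gel-forming mucin of the stomach, was marked in exon 31 of 33, a 3009-bp exon (chr11:1015993-1018642), at 13.5, 10.2, 10.5 and 9.69. PCDH15, a protocadherin of inner ear hair cells, was marked in its last exon (chr10:55581889-55582398) at 12, 12.2, 9.17 and 9.83. The control values lay above the si-N6AMT1 values at PCDH15 but overlapped them at MUC6.

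PRRC2C, which encodes a proline-rich protein, was marked in exon 12 of 35 at 8.24, 9.60, 7.60 and 10.2, with 91% sense purine. SREK1, a splicing regulator rich in arginine, serine, glutamate and lysine, had 9.37, 11.6, 7.12 and 7.69, and its 363-bp exon was 90% purine around the summit. CALD1, the actin-binding protein caldesmon, had 7.92, 8.90, 13.4 and 12.3 over the exon that encodes a repeated charged segment. In fold both controls were above both si-N6AMT1 libraries at SREK1, and at CALD1 the order was the opposite. Pileups were 24, 36, 26 and 33 fragments at SREK1 and 23, 31, 38 and 37 at CALD1.

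LRRIQ1 had 10.0, 8.99, 8.22 and 11.4, with 91% sense purine. The GOLGA6L1 and GOLGA6L22 region had 10.7, 10.2, 6.86 and 6.55, with both controls higher in fold. Its pileups were 21, 23, 25 and 24 fragments, with both si-N6AMT1 libraries higher. Pileups are not adjusted for depth, and the depth measure above was higher in both si-N6AMT1 libraries. GOLGA6L genes are a family of near-identical copies with glutamate-rich repeats, so reads could have been placed in the wrong copy and this region is uncertain. DLG2, a synaptic scaffold, had 8.65, 7.21, 7.11 and 7.89 at a 69-bp exon, with an exonic summit in 3 of the 4 libraries. It was the 1 named coding region in a short exon.

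A few further coding regions in all 4 libraries lay outside the naming rule and were picked out after their values were seen. NSRP1, a nuclear speckle splicing regulator, was 82% sense purine and CHD1, a chromatin remodeller, was 85%, while POLR2A was 37% and ZAN 48%. NSRP1 had fold values of 14.1, 10.5, 8.48 and 5.24, in which both controls exceeded both si-N6AMT1 libraries. CHD1 had 7.16, 6.12, 14.5 and 8.31, and there the order was reversed.

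Among untranslated regions, PLBD2, a lysosomal protein, was marked in its 3171-bp last exon (chr12:113827295-113828894) at 13.7, 15, 12.8 and 15.9, with the groups overlapping. SCGB2A2 encodes mammaglobin, a secreted protein of breast epithelium. Its 3′ untranslated sequence (chr11:62038739-62039779) had 10.1, 9.50, 12.1 and 11.9, with both si-N6AMT1 libraries above both controls. GSG1L, an auxiliary subunit of AMPA receptors, had 13.2, 9.31, 12.4 and 10.3, and PKD1L2 had 13.5, 9.24, 8.97 and 10.5, both with overlapping groups.

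ITM2B, a membrane protein whose last exon is 9219 bp long, had 10.6, 7.97, 8.19 and 7.34. NFILZ had 11.2, 10.6, 8.70 and 11.9. SPI1, a transcription factor of blood cells, had 12.3, 12.3, 9.15 and 9.69, but the summit was exonic in only 1 library and the 4 summits spread over 2389 bp. RP13-279N23.2 had 10.9, 7.86, 16.6 and 12.7, also with 1 exonic summit.

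In 3 of the 4 libraries the exonic peak of highest fold lay in a lncRNA exon, and in si-N6AMT1 replicate 2 it lay in PLBD2, at 15.9. The 4 windows below show the 30 bases around the strongest exonic summit of 4 of them, 5′ to 3′ on the sense strand in GRCh37, with the longest runs of purines or pyrimidines in capitals, ties included. Short motifs recur in these 4 windows without long runs, but they do not stand for lncRNA summits at large. On average 25.2% of lncRNA summits had a run of 30 or more purines or pyrimidines in their window. LINC01608 ranked above ENSG00000269934 and HERC2P3 by the naming rule and held a run of 68 pyrimidines, but its window is not shown.
ENSG00000288002, chr5:8208887-8208916: tacacacacacaccatataaaCCCCacata
LINC01271, chr20:48917829-48917858: CCCaTCCaTTCgCCTaTCCgTCCaCCCact
ENSG00000269934, chr1:228426381-228426410: gTTCatgtgtGGGtggtgtatgtgtGAGtg
HERC2P3, chr15:20586297-20586326: CCCacaccacacatcaCCTaccacacatta
ENSG00000288002 had fold values of 24.3, 18.7, 16.1 and 14.3, with pileups of 61, 55, 69 and 68 fragments. In fold both controls lay above both si-N6AMT1 libraries there. In pileup, which is not adjusted for depth, both si-N6AMT1 libraries lay above both controls. LINC01271 had 15.1, 14.7, 18.4 and 11.3, with overlapping groups.

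LINC01608, whose window held a run of 68 pyrimidines, had 20.1, 17.6, 13.6 and 14.0. ENSG00000269934 had 17.1, 13.5, 13.2 and 12. In fold both controls were above both si-N6AMT1 libraries in each. In pileup this order held at LINC01608, with 45, 46, 43 and 44 fragments. At ENSG00000269934 the pileups were 38, 35, 44 and 39, with both si-N6AMT1 libraries higher. These pileups are likewise not adjusted for depth. HERC2P3, annotated here as a lncRNA, is a copy of part of HERC2, and its values of 10.6, 11, 11.2 and 10.6 are uncertain for that reason. ENSG00000276509 had 14.2, 12.2, 9.30 and 12.4.

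**Figure D5:**
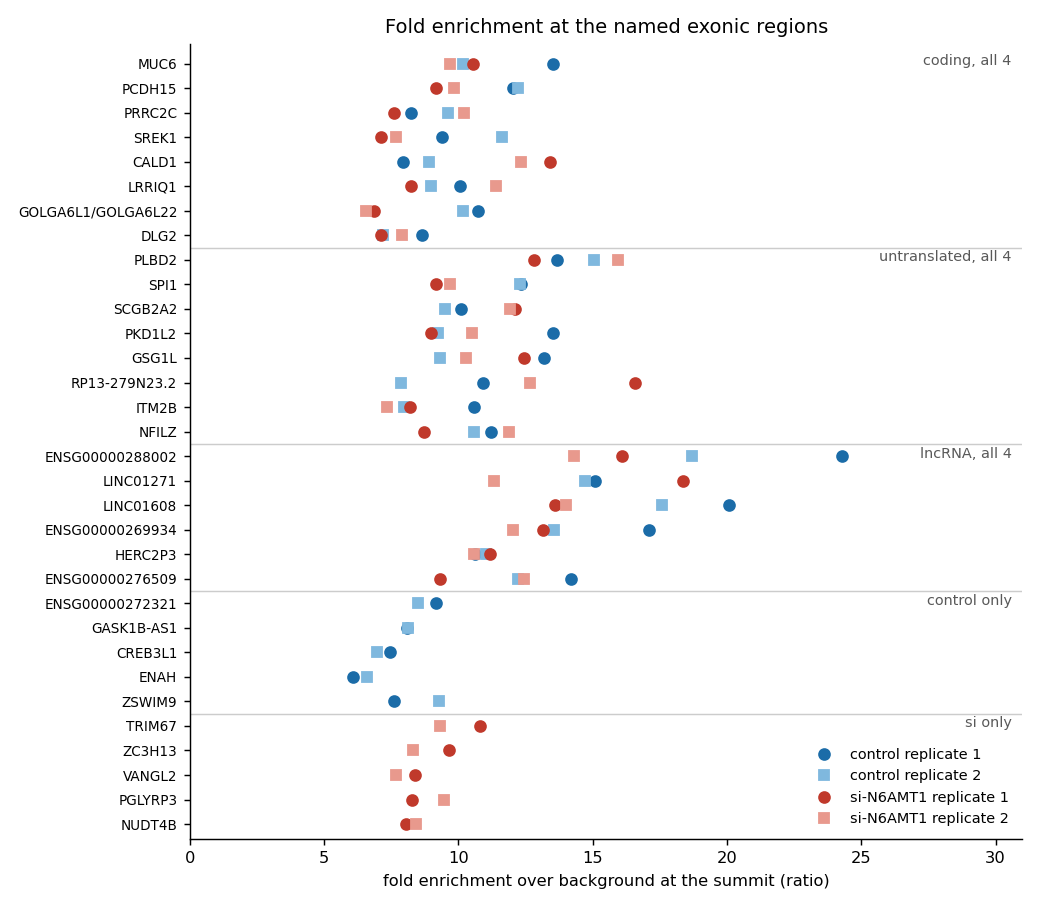
Fold enrichment at the summit (x axis, ratio) for each named region (rows), with 1 point per library in which a peak was called; blank positions are libraries with no peak. The lncRNA region ENSG00000288002 reaches 24.3, the highest value plotted.

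The highest ranked regions found in both controls and neither si-N6AMT1 library are given with their 2 control values. ENSG00000272321 had 9.16 and 8.50, GASK1B-AS1 8.07 and 8.13, CREB3L1 7.45 and 6.96, ENAH 6.07 and 6.58 and ZSWIM9 7.59 and 9.26. CREB3L1 is a membrane-bound transcription factor and ENAH an actin regulator, whose region lay in a coding exon with 79% sense purine. In both si-N6AMT1 libraries and neither control, TRIM67 had 10.8 and 9.31, ZC3H13 9.64 and 8.30, VANGL2 8.39 and 7.66, PGLYRP3 8.28 and 9.45 and NUDT4B 8.04 and 8.43. ZC3H13 is a subunit of the complex that methylates adenine in RNA, and it held a second coding region with the same call pattern, at 7.39 and 5.52. NUDT4B is a near-identical copy of NUDT4, so its region is uncertain. A library without a peak may hold signal below the caller's threshold, which was not analysed here.

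Exonic regions were spread over 515 genes, of which 491 had 1 region, 22 had 2 and 2 had more. HELLPAR, a lncRNA annotated as a single exon of 205012 bp, held 11 regions, and none of these was called in all 4 libraries. MEG3, an imprinted lncRNA, held 3 regions in its 11749-bp last exon. One of them was called in all 4 libraries at 6.17, 6.60, 6.56 and 5.50, but the 4 summits spread over 1330 bp. Sense purine was 79% around its strongest exonic summit, in si-N6AMT1 replicate 1.

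Gene lists chosen with earlier results known held few regions. At least 1 exonic region lay in 341 of 19222 protein-coding genes (1.77%). Among all exonic regions, 271 were untranslated and 80 coding, and 14.8% and 31.3% of these were called in all 4 libraries. Among zinc finger genes 14 of 594 had one (2.36%), with 12 of the 14 regions in untranslated sequence and 0 in all 4 libraries. Among mucins 4 of 17 had one, namely MUC6, MUC7, MUC12 and MUC3A, with MUC6 the only one called in all 4 libraries. Mucin exons are repeated in tandem and alike between genes, so these assignments are uncertain. Among protocadherins 2 of 63 had one, PCDH15 and PCDHA4. Olfactory receptor genes had one in 6 of 414, with all 7 regions untranslated, and OR2M3 held 2 of them. Ribosomal protein genes had one in 1 of 80, RPS29. None of 42 collagen genes, none of 7 cell cycle regulators named by the study (RB1, CDKN1A, REST, LATS2, MDM2, TIPRL and BTG1) and not N6AMT1 itself held an exonic region. Long genes and long exons have more chances to hold a peak, and gene length was not adjusted for.

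Few exonic peaks lay close to the distance threshold on either side. Those nearer to a start site than 751 bp were not counted here. Just outside it, 751 to 1000 bp from the nearest start site, lay 3, 10, 11 and 9 exonic peaks with median folds of 8.79, 7.75, 6.80 and 6.23. Just inside it, at 1001 to 1250 bp, lay 7, 3, 4 and 12 with medians of 8.25, 8.04, 9.03 and 6.74.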

How the data were processed

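6mA-IP-seq libraries of MDA-MB-453 cells were compared between 2 control and 2 si-N6AMT1 samples; 2 input libraries had no processed file used here. According to the methods and processing notes, the authors aligned reads to hg19 with Bowtie2 2.3.5, removed duplicates with SAMtools 1.9 and called peaks per library with MACS2 at a p threshold of 1e-05. Which input served as background is not given in the sources used here. Removal of duplicates limits pileups over repeated sequence, and reads from near-identical copies may be misplaced. The deposited score is 10 times the −log10 p, cut to a whole number. The deposited fold is a ratio of pileup to background with 1 added to each, and −log10 p and −log10 q are deposited for each summit. The authors' files give no read totals. Pileup at the summit was recovered as the whole number that gives the listed fold and −log10 p, within 0.02 on the −log10 scale.

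Exons and start sites came from basic transcripts of GENCODE version 44 on GRCh37. Coding took precedence over untranslated, and both over lncRNA sequence. Composition was read in 100 bp around each summit and compared with exon windows every 200 bp. A region's fold in a library is that of its strongest exonic peak, or of its strongest peak where none was exonic. The text names regions called in all 4 libraries by rank of their lowest within-list −log10 q percentile (8 coding, 8 untranslated, 6 lncRNA), the first 5 called in 1 group only, genes with at least 3 regions and members of the gene lists. Names outside this rule are marked. RPS6K kinases were taken out of the ribosomal protein list. Groups were compared with exact permutation tests over libraries, and exonic with other peaks by exact sign flips over the 4 libraries. The smallest p values were 0.333 and 0.125, so no test here could pass 0.05. Scripts used Python 3.11.15, pysam 0.24.0, samtools 1.23.1, pandas 2.3.3, scipy 1.17.1, numpy 2.4.6 and matplotlib 3.10.9, and were tested on simulated data. The members, gene lists and tests were chosen with earlier results of these data known, and the tandem repeat criterion was added after other values had been seen. One regulator of the study is not reported here.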

Additional observations from a re-analysis of the deposited data

Results flagged for a closer look

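The motif CAGGCTGG was flagged because its share at exonic summits relative to other summits had opposite signs in the 2 groups. The share at exonic summits minus that at other autosomal peaks was 0.328 percentage points in control replicate 1 and 1.20 in control replicate 2, and -1.54 and -1.22 percentage points in si-N6AMT1 replicates 1 and 2. These values rest on 7, 10, 7 and 8 exonic peaks with the motif, and at other peaks the share was 2.69% and 2.75% in the controls and 3.93% and 4.0% in si-N6AMT1. The difference between the groups was not tested.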

How the results depend on the processing

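Of 134 values recomputed under other settings, 115 kept their direction and their side of the threshold or, for values and counts with no test, stayed near the main value, 11 moved and 8 changed sign; the cause was not tested. With so few libraries no exact test could pass, so a kept side says nothing about stability, and some kept differences changed in size. The untranslated share difference became 0.0102 percentage points with equal numbers of peaks and 0.00226 with a promoter window of 2000 bp upstream to 500 bp downstream, and ranged from -0.0138 to 0.00335 with 1 library left out. The lncRNA share difference became 0.0175 with that promoter window and 0.00536 with all transcripts, and ranged from -0.0171 to 0.0171 with 1 library left out, including 0.00864 without control replicate 2. The replicate overlap difference became -0.0891 with all transcripts. Exonic density relative to the autosomes was 0.289 for summits at least 50 bp inside the exon and 0.268 with all transcripts. Regions called only in si-N6AMT1 numbered 19 with equal numbers of peaks. With 1 library left out, where a group is then judged by 1 sample, the control group alone had 26 to 71 such regions and the si-N6AMT1 group alone 50 to 111.

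The difference in exonic peaks was 39 at a −log10 q of at least 5 and 37.5 to 58.5 with 1 library left out. With a replicate block it was 48 peaks with an exact p of 0.5, the smallest that 2 pairs allow, and no call changed. Deviations of same-numbered libraries correlated at -0.0215 over exonic regions. The labels do not say whether same-numbered libraries were handled together, and this value cannot decide it. Depth differs between the lists, and 2 libraries per group limit every comparison.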

Other observations

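Exonic peaks were unevenly spread over the autosomes. Per Mb of exon sequence away from promoters, the mean over the 4 libraries was highest on chromosome 13, at 5.36 peaks, and lowest on chromosome 10, at 1.15. Chromosome 19 had the largest exonic share of its peaks, at 2.18%, and chromosome 10 the smallest, at 0.352%. This share does not allow for how much exon sequence a chromosome holds. Per Mb of exon sequence, chromosome 19 had 3.79 peaks. These are descriptions without a test, and few peaks lie behind the values of the smaller chromosomes.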
